A study of Mus musculus with 45 samples.

Results

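The genes for the proteins of the cytosolic ribosome were followed across induced pluripotent stem cells (iPSCs) of different cellular origin and age in culture. Members were chosen by symbol alone: Rpl or Rps followed by a digit, and Rplp0, Rplp1, Rplp2 or Rpsa. The S6 kinases (Rps6k) and the mitochondrial ribosomal proteins (Mrp) were left out. The rule found 77 genes. Of these, 72 were among the 11807 genes of the table for passages 4, 6 and 16, 49 were among the 12394 genes of the table for passage 10, and 44 were in both.

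RNA of 45 cultures was hybridised, in 15 groups of 3 clones. One animal, mouse 1, was the source of iPSCs from bone marrow granulocytes (Gra, passages 4 and 16) and from precursors of skeletal muscle (SMP, passage 6). The other, mouse 2, was the source of iPSCs from tail tip fibroblasts (TTF), splenic B cells (B), T cells (T) and granulocytes, each at passages 4, 10 and 16. All lines came from a secondary reprogramming system and were grown on irradiated embryonic fibroblasts in serum medium with LIF. Before RNA extraction the cells were preplated to remove those feeder fibroblasts. The 33 arrays of passages 4, 6 and 16 and the 12 arrays of passage 10 are different platforms and were normalised separately, so no level was compared between them. The clones of a group come from 1 mouse, so each p-value reflects how clones differ and says nothing of how animals differ.

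A ribosome is built from ribosomal RNA and a single copy of nearly every ribosomal protein. The small subunit decodes the mRNA and the large subunit joins the amino acids. The stalk proteins Rplp0, Rplp1 and Rplp2 recruit the elongation factors. Messages for these proteins typically begin with a run of pyrimidines, the terminal oligopyrimidine tract, through which growth signalling by mTOR controls their translation. A few members have paralogs with a narrower range of tissues: Rpl3l is a muscle paralog of Rpl3, Rpl39l is a testis-enriched paralog of Rpl39, and Rps27l is a p53-responsive paralog of Rps27.

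RefSeq start-site sequence of build GRCm38.p6 was on hand for 61 of the 77 members. The windows below run from 40 bases before to 15 bases after the annotated first base, on the strand of the gene. They are shown for members whose values are described later, and capitals mark the longest run of C and T that touches the annotated start or lies within 3 bases of it. Where a gene had several annotated starts, the start with the longest run is shown. Of the windows below this applies to Rps27l, with 2 starts.
Rpl14: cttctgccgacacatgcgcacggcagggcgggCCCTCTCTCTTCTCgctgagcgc
Rps18: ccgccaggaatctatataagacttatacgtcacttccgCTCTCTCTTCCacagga
Rplp2: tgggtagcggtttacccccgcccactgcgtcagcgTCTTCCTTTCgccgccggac
Rpl22l1: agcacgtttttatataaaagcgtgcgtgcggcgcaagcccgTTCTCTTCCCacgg
Rpl13: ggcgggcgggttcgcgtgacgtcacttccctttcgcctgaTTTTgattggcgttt
Rps27l: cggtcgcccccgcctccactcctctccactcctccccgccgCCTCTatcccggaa
Rpl7l1: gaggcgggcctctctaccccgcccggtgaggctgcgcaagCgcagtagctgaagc
The windows lie at chr9:120571477-120571531 (plus strand) for Rpl14, chr17:33955651-33955705 (minus) for Rps18, chr7:141447611-141447665 (plus) for Rplp2, chr3:28805468-28805522 (plus) for Rpl22l1, chr8:123102310-123102364 (plus) for Rpl13, chr9:66946046-66946100 (plus) for Rps27l and chr17:46782642-46782696 (minus) for Rpl7l1. The run covered 14 bases in Rpl14, 11 in Rps18 and 10 each in Rplp2 and Rpl22l1. It was 4 bases in Rpl13, 5 in Rps27l and 1 in Rpl7l1.

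A run of 8 or more bases at the annotated start was found in 20 of the 61 members (32.8%), against 2499 of 27025 genes of the promoter table (9.25%). The ETS-type motif CCGGAA, searched on both strands from 250 bases before to 50 bases after the start, was present in 34 members (55.7%) and in 16.7% of all genes. AAGATGGC, the core of the YY1 motif, was present in 5 members (8.2%) and in 3.19% of all genes. TATAAA was present in 8 members (13.1%) and in 15.7% of all genes. These matches describe the windows only, and an annotated start may differ from the start used in these cells.

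Pluripotency markers were bright in every group, with means over 13 measured genes from 10.91 in Gra p16 of mouse 2 to 11.49 in Gra p4 of mouse 2 on the log2 scale. Over the same 11 groups the 26 measured fibroblast or feeder markers had means from 6.72 in B p4 to 7.57 in SMP p6. One array stood apart: clone 3 of Gra p16 of mouse 2 had a mean correlation of 0.922 with the other clones of its group and an interquartile range of 3.48. In that array 34 of the 72 members had their lowest value of all 33 arrays. Clone 2 of T p4 held the lowest value of 14 members.

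The probe sets of nearly all members were at the bright end of the arrays. In the table of passages 4, 6 and 16, 67 of 72 members had a mean above 12 on a scale that ended at 14.08, and 59 were among its 100 brightest genes. Rpl41, the smallest ribosomal protein, ranged from 13.75 to 14.02 over the 33 arrays with a median of 13.90. Rplp2 ranged from 13.56 to 13.86 with a median of 13.81, with clone 3 of Gra p16 and clone 2 of T p4 of mouse 2 lowest, at 13.56 and 13.66, and every other array at 13.72 or above. Brightness differs between probe sets and is no measure of the amount of a transcript, so no order of the genes was read from it.

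Members varied little between groups. The median SD of the 11 group means was 0.087 over the 72 members, against a median SD of 0.083 between clones within a group. Over all genes the same medians were 0.258 and 0.265. Rpl35 had the narrowest spread of group means (SD 0.026), followed by Rpl41, Rpl21, Rpl27a and Rpl23. The widest spreads were those of Rpl14 (0.372), Rpl7l1 (0.347), Rpl39l (0.336), Rpl29 (0.327) and Rps9 (0.255). The 169 other genes with a mean above 12 had a median SD of group means of 0.146, and the 67 members above 12 had 0.081. How far the upper end of the array scale compressed these values was not tested.

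**Figure D1:**
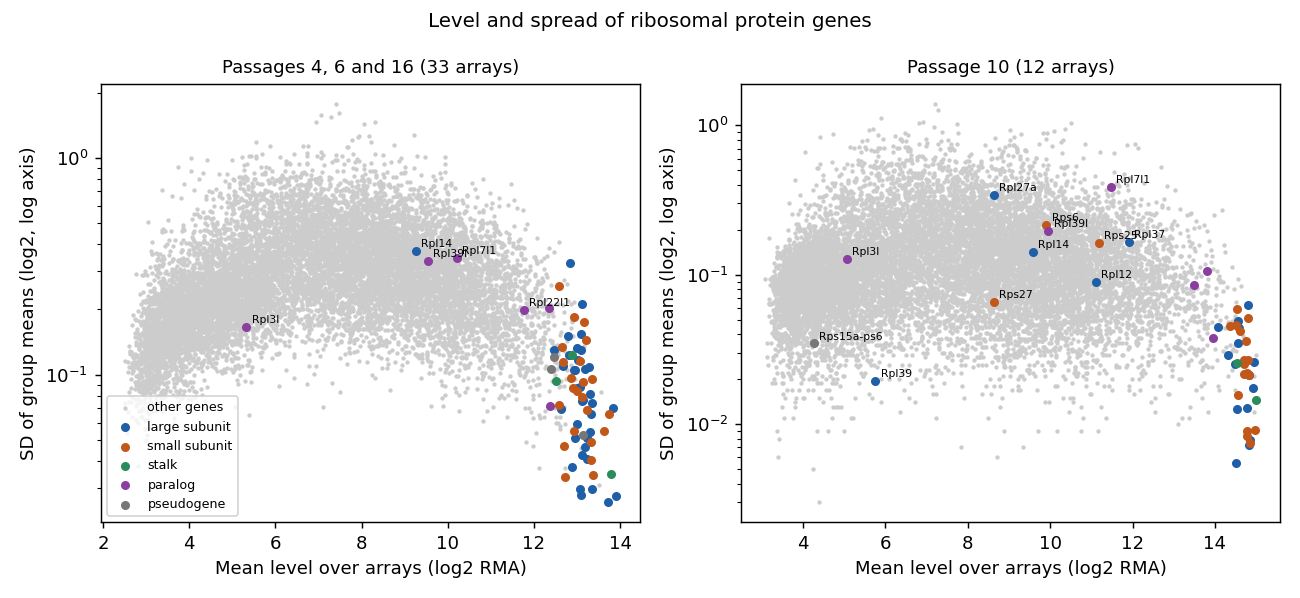
Mean level over arrays (log2 RMA, x axis) against the SD of the group means (log2 units, logarithmic y axis) for every gene of each table, with ribosomal protein genes coloured by role and other genes in grey. Most members sit at the bright end with small SDs, while Rpl14, Rpl7l1 and Rpl39l, with SDs of 0.372, 0.347 and 0.336 in the left panel, lie among the other genes.

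The question of whether iPSCs keep a trace of their origin was put to the members at passage 4, in the 4 origins of mouse 2. Rpl14, a large subunit protein, differed most. Rpl22l1 and its sister gene Rpl22 passed the threshold narrowly and lost it without some single arrays, and none of the 23 small subunit, 3 stalk or 3 pseudogene members was called. A limma F-test with Benjamini-Hochberg adjustment over all genes at 0.05 called 3 of 72 members (4.17%), where it called 39.0% of all genes. Among the 169 other genes with a mean above 12 it called 46 (27.2%).

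Rpl14 was at 8.29, 8.36 and 8.46 in the 3 TTF clones at passage 4. The B clones were at 9.64, 9.61 and 9.80, the T clones at 9.29, 9.31 and 9.29, and the Gra clones at 9.72, 9.45 and 9.48. Every TTF clone was therefore below every other clone of that passage. TTF was lower than the other origins by 2.20-fold (log2 difference -1.14 ± 0.13 SE, n = 3 against 9, limma adjusted p = 8.2e-07), and the contrast called 2 members where 19.5% of all genes were called. Both were lower in TTF, and with other scalings members higher in TTF were called too, 3 with quantile normalization and 5 with cyclic loess.

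B was 0.61 ± 0.13 higher in Rpl14 than the other origins (adjusted p = 0.0034, limma), the only member of that contrast, where 10.1% of all genes were called. Gra was 0.43 ± 0.13 higher (adjusted p = 0.014, limma) and was also 0.23 ± 0.08 lower in Rpl13a (adjusted p = 0.038), a member known for its part in translational silencing after interferon. That made 2 members against 23.1% of all genes, and leaving out single arrays gave 0 to 4. With cyclic loess 1 member was higher and 5 were lower in Gra, and 1 was higher and 1 lower in B. T against the others called no member, with 3 at an unadjusted limma p under 0.05, where 18.8% of all genes were called.

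The Rpl14 result rests on 1 probe set of intermediate brightness, with a mean of 9.26. Another 4 probe sets annotated to both Rpl14 and the pseudogene Rpl14-ps1 had means between 13.19 and 13.46. Their differences between TTF and the other origins lay between 0.04 and 0.09, with adjusted limma p-values from 0.44 to 0.76. Which of these probe sets follows the gene was not tested.

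Rpl22l1 was at 11.53, 11.12 and 11.22 in the TTF clones of passage 4. It was at 11.72, 11.75 and 11.63 in B, at 11.78, 11.48 and 11.95 in T, and at 11.55, 11.58 and 11.72 in Gra. The highest TTF clone overlapped the lowest T clone. TTF was 0.40 ± 0.12 lower than the other origins (n = 3 against 9, adjusted p = 0.018, limma). The F-test over the 4 origins gave an adjusted p of 0.046 (limma), which lost the call in 10 of 13 fits that left out 1 array and reached 0.26 without clone 2 of TTF p4. Without clone 3 of Gra p16 it was 0.014.

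Rpl22, the gene Rpl22l1 is a paralog of, was at 13.16, 13.04 and 13.01 in TTF and 13.11, 13.17 and 13.12 in T. It was at 12.91, 12.85 and 12.88 in B and 12.78, 12.83 and 12.90 in Gra. All TTF and T clones were above all B and Gra clones, and the F-test gave an adjusted p of 0.031 (limma), which rose to 0.11 when the fibroblast list was a covariate. Its call was lost in 7 of 13 fits that left out 1 array, with the highest adjusted p, 0.083, without clone 1 of Gra p4.

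The share of members called depended on which probe sets stood for the genes. Tested singly, 22 of the 134 member probe sets (16.4%) differed among origins at passage 4, against 37.9% of all 22690 probe sets. Of the 95 brighter than 12, 3 were called, and of the 39 dimmer ones 19 were called (48.7%). With the mean of all probe sets of a gene in place of the brightest, the count was 14 of the members, and with trend and robust settings or cyclic loess it was 12. Dim probe sets of the members were thus called more often than bright ones in these data, and what sets them apart was not tested.

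The fibroblast or feeder markers differed among the same arrays: 19 of 26 were called among origins at passage 4, and 14 of 26 were higher in T, where they averaged 7.51 against 6.72 in B, 6.75 in TTF and 6.92 in Gra. With their mean as a covariate 3 members were called in the F-test, but not the same 3. Rpl14 and Rpl22l1 kept their calls, and Rpl22 lost its own (adjusted p = 0.11, limma). Rpl14 was 1.34 ± 0.13 lower in TTF (log2 difference -1.34, adjusted p = 1.9e-07, limma). For B against the others no member was called with that covariate, so the higher Rpl14 of B was not. B and TTF had nearly equal marker means, 6.72 and 6.75, but B had the highest and TTF the lowest group mean of Rpl14. The marker mean differed among the same origins, so this fit separates marker level and origin poorly. Why the B call was lost was not tested.

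**Figure D2:**
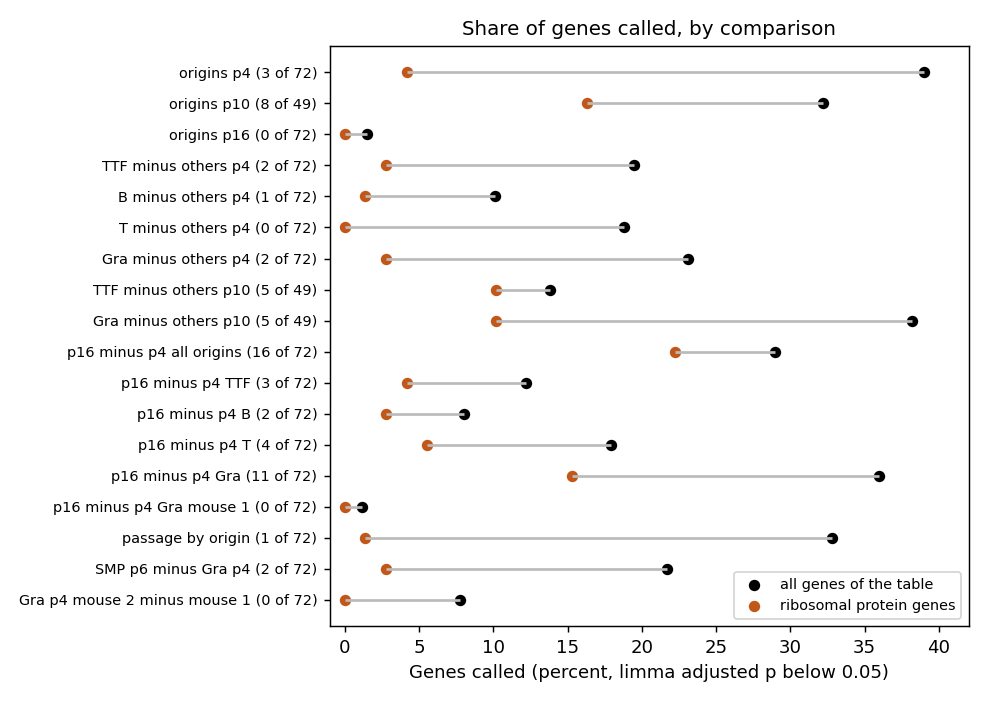
Percent of genes called at a limma adjusted p below 0.05 (x axis) in each of the 18 comparisons, for ribosomal protein genes (orange) and all genes of the table (black), with the members called of those measured in brackets. The orange point lies to the left of the black one in every comparison, for example 4.17% against 39.0% for origins at passage 4.

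At passage 10 the 4 origins of mouse 2 were compared on the other platform. Of the 44 members measured on both platforms, 26 were read by the same probe set. By the brightest probe set of each gene, the members that differed were Rpl7l1, Rps6, Rpl27a, Rpl39l, Rpl14, Rpl37 and Rps25, and the paralog Rpl22l1. All but Rpl22l1 were read by probe sets with means under 13. These were dim next to other members, but above the median of all genes, 7.72. A member not named here may have a dimmer probe set that differed, which was counted only among the single probe sets below. The F-test called 8 of 49 members (16.3%), against 32.2% of all genes. Of the 12 members with a mean under 13, 7 were called, and of the 37 brighter ones 1, Rpl22l1. Tested singly, 7 of 101 member probe sets were called, against 25.8% of all probe sets, and none of the 69 brighter than 13 was among them.

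Rpl7l1, a paralog of Rpl7, was at 10.97, 10.98 and 10.76 in the Gra clones of passage 10. The other 9 clones lay between 11.36 and 11.81, all above Gra. Gra was lower by 1.69-fold (log2 difference -0.76 ± 0.08, n = 3 against 9, adjusted p = 4.1e-05, limma). Its other probe set gave -0.18 ± 0.06 (adjusted p = 0.027, limma).

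Rps6, the small subunit protein phosphorylated by the S6 kinases, was at 9.62, 9.64 and 9.55 in Gra and at 9.87 or above in the other 9 clones. The Gra clones were below all others, by 0.41 ± 0.06 (adjusted p = 0.00018, limma). Its other probe set, with a mean of 4.58, differed by -0.08 ± 0.12 (adjusted p = 0.66, limma). At passage 4 Rps6 was read by a brighter probe set, which was not called among origins (adjusted p = 0.62, limma F-test). The probe set used for passage 10 was then at 9.67, 9.58 and 9.67 in Gra. It lay between 8.77 and 9.61 in the other origins of mouse 2, so Gra was not the lowest at passage 4. Rpl27a was at 8.30, 8.20 and 8.16 in Gra and reached 9.17 in TTF, and Gra was lower by 0.54 ± 0.11 (adjusted p = 0.0022, limma). The lowest T clone, also at 8.30, met the highest Gra clone. Tested singly, 1 of the 2 probe sets of Rpl27a was called in this contrast, and both were lower in Gra. The probe set used here had a mean of 8.63. The narrow spread of Rpl27a given earlier was that of its values on the other platform, which averaged 13.06 over the 4 origins at passage 4.

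Rpl37 ran the other way, at 12.03, 12.27 and 12.14 in Gra against 11.61 to 12.02 in the other clones. It was 0.31 ± 0.08 higher in Gra (adjusted p = 0.0082, limma), and Rpl22l1 was 0.21 ± 0.05 higher (adjusted p = 0.0082). Gra against the others thus called 2 members higher, where 21.1% of all genes were, and 3 lower, where 17.2% were, 5 in all against 38.2%. With quantile normalization the split was 2 higher and 5 lower, and with cyclic loess it was 4 higher and 3 lower. Tested singly, 9 of 32 dim member probe sets and 1 of 69 bright ones were called in this contrast, and so was none of the 75 bright probe sets that a member shares with other symbols. Among the 4 origins Rpl37 had an adjusted F-test p of 0.038 (limma), and its call was lost in 7 of 12 fits that left out 1 array, with the highest value at 0.15.

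TTF at passage 10 was higher in 5 members, where 5.3% of all genes were called higher and 13.8% in either direction. Rpl39l was at 10.12, 10.14 and 10.39 in TTF and at most at 10.03 elsewhere, a difference of 0.35 ± 0.07 (adjusted p = 0.011, limma). The other 4 were Rpl27a (0.50), Rpl7l1 (0.37), Rpl14 (0.26) and Rps6 (0.24), and in each of them TTF clones overlapped clones of other origins. Tested singly, 1 of 2 probe sets was called for each of Rpl27a, Rpl7l1 and Rps6, with both in the same direction. For Rpl14 the TTF clones, at 9.72, 9.78 and 9.80, overlapped the highest B clone at 9.75, and 5 bright probe sets shared with Rpl14-ps1 had differences between -0.01 and 0.04.

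The fibroblast or feeder markers moved with these results. Over 29 measured markers the mean was 8.95 in TTF, 8.48 in T, 8.38 in B and 7.94 in Gra, and 22 of 29 were called higher in TTF and 21 lower in Gra. With the marker mean as a covariate none of the 8 members was called in the F-test, and the Gra difference of Rpl7l1 became -0.25 ± 0.19 (adjusted p = 0.76, limma). That of Rps6 became -0.29 ± 0.17 (adjusted p = 0.70, limma). The Gra differences of Rpl37 and Rpl22l1 did not shrink, at 0.71 and 0.21, and were not called either. No member was called for Gra or for TTF against the others. Without the covariate the SE of Rpl7l1 was 0.08. The marker mean differed among the same origins, so this fit separates marker level and origin poorly. Fewer cells of a type and less RNA per cell cannot be told apart in these bulk samples.

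**Figure D3:**
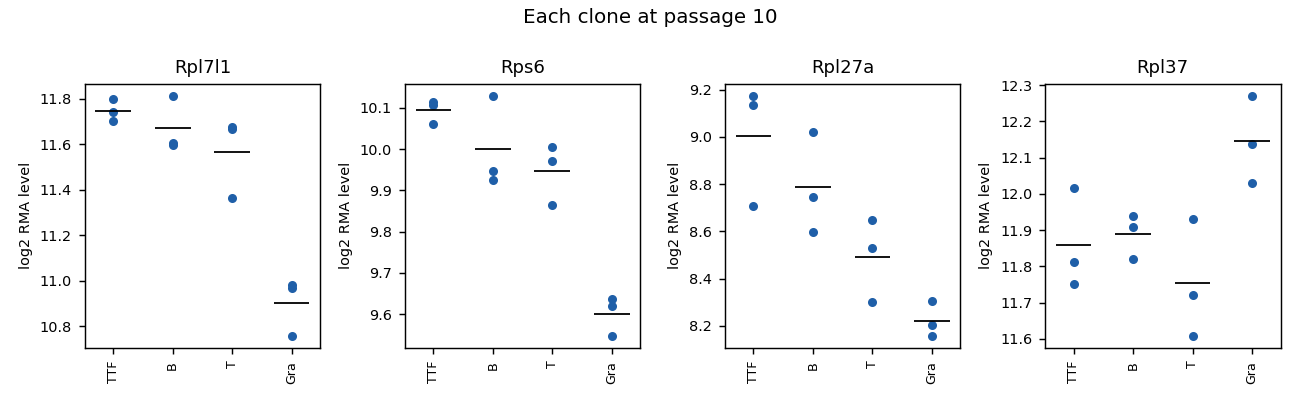
Level of Rpl7l1, Rps6, Rpl27a and Rpl37 (log2 RMA, y axis) in each of 3 clones of the 4 origins at passage 10, with the group mean as a bar. The Gra clones are the lowest in Rpl7l1 and Rps6, at most 10.98 and 9.64, and their mean in Rpl37, 12.15, is the highest of the 4 groups.

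At passage 16 no member differed among the 4 origins by the limma F-test, with 2 of 72 at an unadjusted p under 0.05. Of all genes 1.52% were called.

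Late and early passage were compared over the 4 origins of mouse 2 together. Most members differed little in value: 61 of 72 differences lay within 0.2 on the log2 scale. Rpl7l1 and Rpl22l1 rose and 14 members fell, by 0.44 at most on average over the origins. The fallers were 8 large subunit genes, 5 small subunit genes and the paralog Rps27l. limma called 16 of 72 members (22.2%), where 29.0% of all genes were called, and the directions were 2 higher against 16.6% of all genes and 14 lower against 12.4%. The median difference was -0.02 over the members and 0.07 over all genes, and the median size was 0.07 against 0.18.

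Among the large subunit members, Rpl29 fell by 0.42 ± 0.11 (adjusted p = 0.0040, limma) and Rpl13 fell by 0.33 ± 0.06 (adjusted p = 0.00033, limma). Rpl13 was at 13.21, 13.27 and 13.29 in B at passage 4 and at 13.08, 12.95 and 12.89 at passage 16. In T it was at 13.35, 13.38 and 13.19 and then at 12.84, 12.98 and 12.78. The passages did not overlap in B, T or Gra, while in TTF the values of 13.16, 12.96 and 13.26 spanned the later 13.08, 13.04 and 13.01. A dimmer probe set of Rpl13 differed by 0.08 ± 0.17 over the origins (adjusted p = 0.73, limma).

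Rpl28, Rpl9, Rpl24, Rpl36a, Rpl13a and Rpl11 fell by 0.16 to 0.22 with adjusted limma p-values from 0.0052 to 0.017. Dim second probe sets of Rpl9 and Rpl11, with means of 6.71 and 7.06, fell further, by 1.29 ± 0.16 and 0.49 ± 0.11, and that of Rpl24 differed by 0.24 ± 0.14 the other way and was not called (adjusted p = 0.19, limma). Rpl24 is altered in the belly spot and tail mouse, and Rpl11 binds Mdm2 when ribosome assembly is disturbed. No member of this comparison was free of overlap between all 12 early and all 12 late arrays, so the genes named for it were chosen after their values were seen.

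Of the small subunit members, Rps18 fell by 0.27 ± 0.07 (adjusted p = 0.0026, limma). It was at 13.38, 13.40 and 13.41 in B at passage 4 and at 13.06, 13.08 and 12.78 at passage 16, with no overlap, and in Gra at 13.28, 13.21 and 13.13 and then 12.95, 13.03 and 12.44. Rps2, Rps26, Rps19 and Rps3a1 fell by 0.16 to 0.22, and the other probe sets of Rps2 differed by -0.10 and 0.02 and were not called. Rps19 and Rps26, with Rpl11, were the 3 genes called of 14 measured genes known for Diamond-Blackfan anaemia, an inherited failure of red cell production. That share, 21.4%, is below the 29.0% of all genes called in this comparison. Rps19 lost its call without clone 3 of Gra p16.

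The stalk genes and Rpsa, which is also the precursor of a laminin receptor, did not pass the test. The differences were -0.09 ± 0.07 for Rplp0, -0.16 ± 0.06 for Rplp1 (adjusted p = 0.052, limma), -0.02 ± 0.05 for Rplp2 and 0.08 ± 0.04 for Rpsa. Rps4x, the small subunit gene on the X chromosome, differed by 0.02 ± 0.05. The 3 pseudogene members were not called either.

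Of the 6 paralogs 3 were called. Rps27l fell by 0.34 ± 0.08 (adjusted p = 0.0014, limma), and its 3 probe sets all fell, by 0.29 to 0.39. In TTF it went from 12.54, 12.67 and 12.74 to 11.83, 12.24 and 12.11 without overlap, and in T from 12.63, 12.47 and 12.62 to 12.36, 12.29 and 12.28. Its mean was lower at passage 16 in all 4 origins of mouse 2 and in Gra of mouse 1.

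Rpl22l1 rose by 0.32 ± 0.07 (adjusted p = 0.0018, limma). In TTF it went from 11.53, 11.12 and 11.22 to 11.77, 11.94 and 11.84, and in B from 11.72, 11.75 and 11.63 to 11.90, 12.02 and 11.93, both without overlap. The rise of the mean was 0.19 in T, 0.26 in Gra, 0.25 in B and 0.56 in TTF. In Gra of mouse 1 it was 0.29 ± 0.14, which missed the threshold (adjusted p = 0.47, limma).

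Rpl7l1 rose by 0.44 ± 0.09 (adjusted p = 0.00046, limma). In T it went from 9.66, 9.89 and 10.14 to 10.60, 10.65 and 10.75, and in B from 10.27, 10.05 and 9.87 to 10.61, 10.33 and 10.57, whereas TTF had 10.40, 10.29 and 10.23 and then 10.24, 10.26 and 10.37. Its other probe set gave -0.14 ± 0.12 (adjusted p = 0.37, limma). In T both probe sets rose, by 0.77 and 1.27. In Gra they were called in opposite directions, at 0.58 and -0.70. The other paralogs did not pass the test, with differences of 0.07 ± 0.05 for Rpl36al, 0.12 ± 0.16 for Rpl39l and 0.08 ± 0.12 for Rpl3l.

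**Figure D4:**
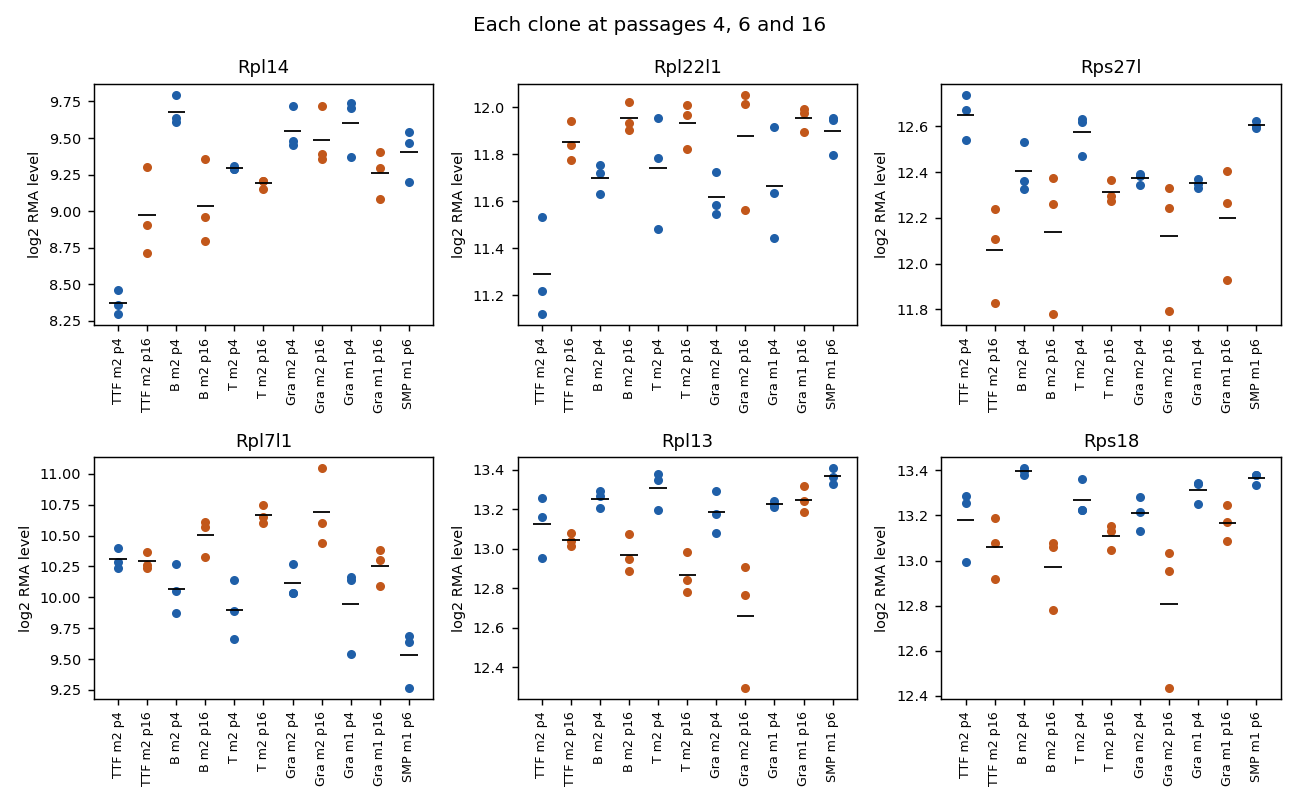
Level of Rpl14, Rpl22l1, Rps27l, Rpl7l1, Rpl13 and Rps18 (log2 RMA, y axis) in each of 3 clones of the 11 groups at passages 4 and 6 (blue) and 16 (orange), with the group mean as a bar, where m1 and m2 are the mice. Rpl14 is lowest in TTF at passage 4, where the clones lie between 8.29 and 8.46, and the group mean of Rps27l is lower at passage 16 than at passage 4 in every origin.

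Leaving out clone 3 of Gra p16, the array that stood apart, 15 members were called and all 15 were among the 16. With the fibroblast list as a covariate 4 members were called, with the clone number as a block 8, and with trend and robust settings 28. Tested singly, 37 of 134 member probe sets (27.6%) were called, against 29.4% of all probe sets. The fibroblast or feeder markers also differed between passages: 15 of 26 were called, 13 of them higher at passage 16. Their part in the members' changes was not tested beyond that covariate.

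**Figure D5:**
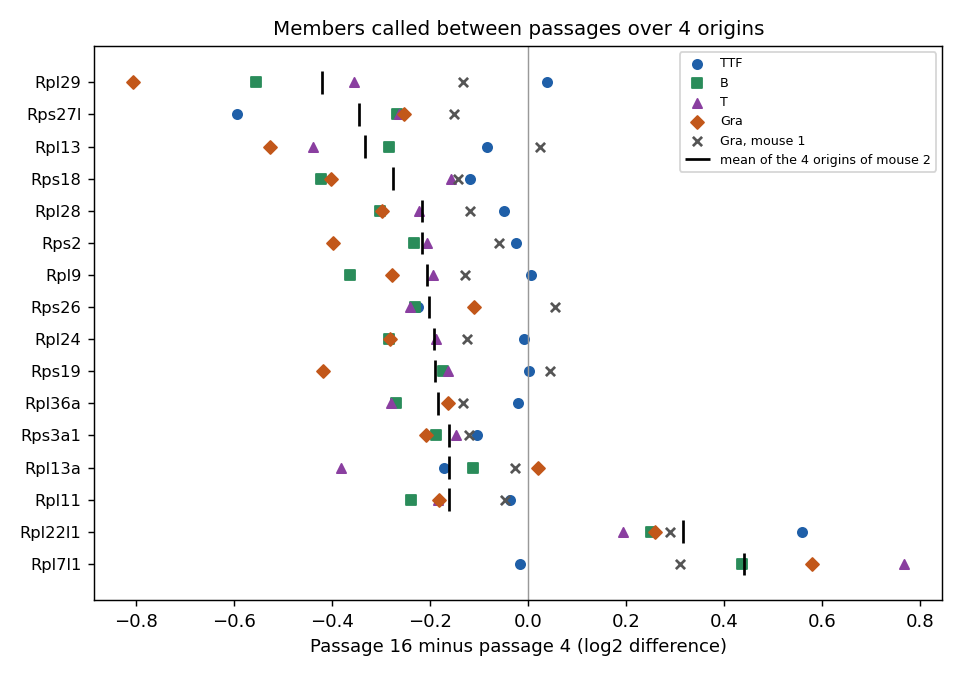
Passage 16 minus passage 4 (log2 difference, x axis) for the 16 members called over the 4 origins of mouse 2, with a symbol for each origin, a cross for Gra of mouse 1 and a vertical bar for the mean of the 4 origins. Rpl29 and Rpl13 have their largest falls in Gra, -0.81 and -0.53, while in TTF Rpl29 differed by 0.04.

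Within single origins fewer members were called. In TTF there were 3 (12.2% of all genes): Rps27l fell by 0.59 ± 0.15 (adjusted p = 0.010, limma), Rpl22l1 rose by 0.56 ± 0.14 and Rpl14 rose by 0.60 ± 0.16, from 8.29, 8.36 and 8.46 to 8.90, 9.30 and 8.71. Single arrays ended each of these calls: p16 clone 1 that of Rps27l, p16 clone 2 those of Rpl14 and Rpl22l1, and p4 clone 2 that of Rpl22l1. With the fibroblast list as a covariate Rps27l was no longer called (-0.54 ± 0.22, adjusted p = 0.20, limma). In B there were 2 (8.0% of all genes): Rpl14 fell by 0.64 ± 0.16 (adjusted p = 0.011, limma), from 9.64, 9.61 and 9.80 to 9.36, 8.96 and 8.79, and Rps18 fell by 0.42 ± 0.13. With the fibroblast covariate neither was called, and the Rpl14 difference shrank to -0.17 ± 0.20 (adjusted p = 0.98, limma). The Rpl14 call was also lost without clone 3 of B p4 (adjusted p = 0.050) or clone 3 of B p16 (adjusted p = 0.094, limma), and that of Rps18 without any 1 of the 6 B arrays.

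In T there were 4 (17.9% of all genes): Rpl7l1 rose by 0.77 ± 0.17, and Rpl13, Rpl13a and Rpl22 fell by 0.44, 0.38 and 0.28. Rpl13a was at 12.62, 12.72 and 12.68 in T at passage 4 and at 12.28, 12.27 and 12.33 at passage 16. With the covariate only Rpl7l1 of these kept its call. The call of Rpl22 was lost without any 1 of the 6 T arrays, and that of Rpl13 without clone 1 or 2 of T p4 or clone 3 of T p16. With cyclic loess 1 member rose and 13 fell in T.

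In Gra of mouse 2 there were 11, against 36.0% of all genes. Rpl7l1 was the 1 that rose (22.0% of all genes rose), and 10 fell (14.0% of all genes fell). With cyclic loess 4 rose and 6 fell, and the median difference of the members went from -0.04 to 0.06, while that of all genes went from 0.21 to 0.08. Deviations of same-numbered Gra clones correlated weakly between the passages, from 0.20 to 0.31, which does not establish that the numbers pair the samples. With the clone number as a block 5 members were called, Rpl7l1, Rpl29, Rpl13, Rps9 and Rps10. With the fibroblast covariate 2 were called, Rpl13 and Rpl29. Other markers moved with this contrast too: 8 of 13 pluripotency markers fell and none rose, and of 11 endoderm markers 5 rose and 1 fell. The part of those markers in the changes of the members was not tested. Rpl29 fell by 0.81 ± 0.21, from 13.13, 13.10 and 12.79 to 12.32, 12.69 and 11.58. Rps9 and Rps10, small subunit proteins near the mRNA entry channel, fell by 0.78 ± 0.24 and 0.55 ± 0.18. For Rps10 a dim probe set rose by 0.87 ± 0.25 and another bright one differed by 0.05 ± 0.09. Clone 3 was the lowest in each: Rps9 went from 12.87, 12.80 and 12.68 to 12.33, 12.62 and 11.05. Without that clone 2 members were called, Rpl13 (-0.35 ± 0.11, adjusted p = 0.025, limma) and Rpl22l1 (0.42 ± 0.14). In Gra of mouse 1, the same contrast called no member by limma, with 2 at an unadjusted p under 0.05, and 1.14% of all genes.

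Rpl14 was the 1 member whose passage change differed among the 4 origins (interaction F-test, adjusted p = 0.0011, limma), where 32.8% of all genes were called. It rose in TTF and fell in B, where the fall was not called with the fibroblast covariate, and its differences were -0.11 in T and -0.06 in Gra. The next was Rpl7l1 with an adjusted p of 0.063. The 4 bright probe sets shared with Rpl14-ps1 differed between passages by -0.04 to 0.04 in TTF and by 0.09 to 0.19 in B, none of them called.

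Within mouse 1, SMP at passage 6 was set against Gra at passage 4, so origin and passage differ together. Rpl8, a large subunit protein near the site of peptide bond formation, was 0.30 ± 0.10 higher in SMP (adjusted p = 0.034, limma), at 12.75, 12.76 and 12.80 against 12.45, 12.50 and 12.46. Rpl39l was lower by 0.90 ± 0.32 (adjusted p = 0.046, limma), at 9.16, 8.79 and 9.13 against 10.53, 9.89 and 9.36. The groups did not overlap in either gene, but the Gra clones of Rpl39l spread over more than the whole difference. These were 2 of 72 members where 21.7% of all genes were called, and leaving out single arrays gave counts from 0 to 6. Rpl8 lost its call without any 1 of the 6 arrays compared, and Rpl39l without any 1 of them but Gra clone 3, and also with quantile normalization (-0.87) and cyclic loess (-0.87). The fibroblast or feeder markers moved with this contrast, with 12 of 26 higher in SMP, and with their mean as a covariate 1 member was called, Rpl39l. Of the 72 differences 62 were above 0, with a median of 0.09 against 0.06 over all genes. With quantile normalization these medians were 0.03 and 0.04, so the members no longer stood above all genes, and both called members were higher in SMP.

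Gra at passage 4 of mouse 2 against mouse 1 called no member by limma, with 3 at an unadjusted p under 0.05 (7.73% of all genes were called). Rpl39l had the smallest p there, with 9.09, 9.23 and 9.21 in mouse 2 and 10.53, 9.89 and 9.36 in mouse 1 (difference -0.75 ± 0.32, adjusted p = 0.18, limma).

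Other genes of ribosome production and translation were counted in the same 2 comparisons, origins at passage 4 and passage over the 4 origins, where 39.0% and 29.0% of all genes were called. Among 51 measured ribosome assembly genes, 34 differed among origins at passage 4 and 16 between passages, among them Nop58 (-0.83 ± 0.15) and Taf1d (-0.60 ± 0.09), which fell, and Polr1a, the largest subunit of RNA polymerase I, which rose by 0.57 ± 0.10. In Gra at passage 4, 22 of 51 were higher than in the other origins and 2 lower, where 983 and 1745 of 11807 genes were. At passage 10, on the other platform, 43 of 55 were lower in Gra and none higher, where 17.2% and 21.1% of all genes were. In that contrast 21 of 29 fibroblast or feeder markers were lower too. Assembly genes were also uneven in other contrasts, of which the following are examples. In T at passage 4, 15 were lower and 2 higher, where 758 and 1456 of 11807 genes were. In SMP against Gra of mouse 1, 18 were lower and 2 higher, where 1198 and 1364 genes were. Between passages in Gra of mouse 2, 27 fell and none rose, where 1657 and 2592 genes did. Of 70 mitochondrial ribosomal proteins 31 differed among origins at passage 4 and 18 between passages. Of 19 other translation genes with pyrimidine-tract messages 4 and 1 were called, the latter Eif3k (-0.22 ± 0.07). Of 11 genes of growth control 5 and 4 were called, the latter Mtor, Eif4ebp2 and Tsc1, which rose, and Rheb, which fell.

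Among the 14 members that fell with passage, 13 had a start-site window, and 4 of these had a run of 8 or more bases (Rps18, Rpl28, Rps26 and Rpl13a), against 14 of 44 other members. CCGGAA was present in 7 of the 13 and in 23 of the 44.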

How the data were processed

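The authors deposited 2 tables of log2 values per probe set, 1 for each platform, normalized by RMA according to the submitters' processing notes. The RMA version, scan dates and batches are not given in the sources used here, and the array number limits precision. Of 22690 probe sets in each table, 18003 (passages 4, 6 and 16) and 20393 (passage 10) had 1 symbol, 287 and 691 had several and 4400 and 1606 had none. A gene took its probe set with the highest mean, and probe sets with several symbols were not used. That removed Rpl5 from the first table and 30 member symbols from the other.

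Group means were fitted to all arrays of a table at once by limma (3.58.1, R 4.3.3), in 18 comparisons (4 F-tests and 14 contrasts), and p-values were adjusted by Benjamini-Hochberg over all genes (called: adjusted p under 0.05). Differences are log2 ± SE. On simulated data with 200 changed genes the script recovered 85.5% for TTF against others at passage 4 (11807 genes) and 99.5% at passage 10 (12394 genes). The mean estimated log2 difference of the changed genes was 0.996 and 0.9995. Most differences of members were smaller, and recovery of smaller ones was not tested. Named genes are called members whose arrays did not overlap between sides (the 4 largest each way), the 5 widest called in F-tests, the stalk genes, Rpsa, the paralogs and the 5 widest and narrowest members. The members and lists were chosen with earlier results of these data known. Alternatives were quantile and cyclic loess normalization, other probe set choices, a filter on the dimmest 40% of genes, a fibroblast covariate, a replicate block, trend and robust settings, and leaving out each array. Clone numbers recur at both passages. In Gra every same-numbered pair of clones deviated together from its group means (correlations from 0.20 to 0.31 in mouse 2 and from 0.17 to 0.38 in mouse 1), so the blocked count is given beside that result. Single probe sets, and leaving out clone 3 of Gra p16 everywhere, were added after seeing the data.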

Additional observations from a re-analysis of the deposited data

Results flagged for a closer look

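Rpl14 was the member whose change from passage 4 to 16 differed among the 4 origins of mouse 2, by the interaction F-test of limma (adjusted p = 0.0011). It rose by 0.60 ± 0.16 in TTF and fell by 0.64 ± 0.16 in B, and every clone of the later passage lay beyond every clone of the earlier one in both. With the fibroblast covariate the interaction was still called (adjusted p = 0.00025, limma), and the rise in TTF was 1.03 ± 0.19, but the difference in B was -0.17 ± 0.20 and not called (adjusted p = 0.98). Without clone 3 of B p4 or clone 3 of B p16 the fall in B lost its call, and without clone 2 of TTF p16 so did the rise in TTF. Only 1 probe set carries its symbol alone, and 4 brighter probe sets shared with Rpl14-ps1 were called in neither origin.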

How the results depend on the processing

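Counts of members called moved by more than 1.5 times under many settings. Cyclic loess gave 12 among origins at passage 4 (6 with quantile normalization), 7 for TTF (5), 2 for B, 7 for T (1) and 6 for Gra against the others at that passage, 14 for passage in T and 6 for passage by origin (5). Averaging the probe sets of each gene gave, in the same order, 14, 6, 3, 5, 9, 8 and 7, with 9 for passage in TTF, 4 in B, 7 for SMP and 1 for Gra of mouse 2 against mouse 1. Without _x_at and _s_at probe sets the counts were 8 among origins, 5 for TTF, 2 for B, 1 for T, 5 for Gra, 6 for passage in TTF, 5 for passage by origin, 6 for SMP and 2 between mice. Without dim genes they were 6 among origins, 5 for TTF, 1 for T, 9 for Gra at passage 10, 3 for passage by origin and 4 for SMP. Trend and robust settings gave 12 among origins, 8, 2, 3 and 6 for TTF, B, T and Gra at passage 4, 14 for Gra at passage 10, 28 for passage over all origins, 7, 7 and 19 for passage in B, T and Gra, 5 for passage by origin and 7 for SMP.

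The fibroblast covariate left 0 among origins at passage 10 and for TTF and Gra there, 0 for B and 1 for T at passage 4, 4 for passage over all origins, 0, 1 and 2 in B, T and Gra, 2 for passage by origin, 1 for SMP and 1 between mice. The replicate block (clone number) gave 8 for passage over all origins, 1, 2 and 5 in B, T and Gra, and 1 for SMP, moved no other count by more than 1.5 times, and took Rpl22l1 among origins at passage 4 to an adjusted p of 0.057. Clone numbers recur at passages 4 and 16, but the deviations of same-numbered clones from their group means correlated between -0.32 and 0.41, with 9 of 15 above 0.1 and 8 of 15 highest for their own number, so outside Gra the numbers were not taken to pair the samples. Single probe sets gave 22 called among origins at passage 4 and 37 for passage over all origins, of 134.

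Leaving out each array gave 1 to 7 among origins at passage 4, 4 to 7 at passage 10 and 0 to 2 at passage 16. It gave 1 to 9 for TTF, 0 to 1 for T and 0 to 4 for Gra at passage 4, and 1 to 5 for TTF at passage 10. For passage it gave 13 to 23 over all origins, 1 to 3 in TTF, 0 to 8 in B, 2 to 5 in T, 2 to 21 in Gra and 1 to 7 for passage by origin, and 0 to 6 for SMP. Among 31 named results, 449 of 547 values kept direction and call, 96 lost the call and 2 turned: with the mean of probe sets, Rpl7l1 was -0.059 and Rps10 was 0.12 for passage in Gra. The cause of these shifts was not tested.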

Other observations

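The mean over the 72 members was lowest in Gra p16 of mouse 2, where the clones lay between 12.58 and 12.78, and highest in SMP p6 at 12.85 ± 0.01 (SD, n = 3). At passage 10 the mean over 49 members lay between 13.21 in T and 13.23 in TTF.

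Rpl3l, the muscle paralog, was dim in every group, with a median of 5.27 over the 33 arrays of passages 4, 6 and 16. Its highest values, 6.26 and 6.30, were in clone 3 of Gra p16 and clone 3 of T p16 of mouse 2. In the SMP clones it was at 5.28, 5.15 and 5.47.

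Rpl39l had a larger spread between clones than between groups at passages 4, 6 and 16, with an SD of 0.42 within groups and 0.34 among group means, and its values ran from 8.79 to 10.75.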
